A study of Rattus norvegicus with 4 samples.

Results

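The hippocampal RNA pool of rats that ran in wheels without resistance (WR) was compared with the pool of sedentary rats on the 2 of 4 chips of the series that held both pools. These chips, here chips 1 and 2, carried the same 2 pools with the dyes swapped, so that WR was labelled with Cy5 on chip 1 and with Cy3 on chip 2. Of 41008 probes measured on both chips, 25483 (62.1%) were kept, since the software marked the signals of both pools as well above background on each of the chips. The kept probes included 7463 with a gene name, for 5992 genes; the others are given by their probe identifier.

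All rats were male Wistar rats, an outbred strain, and were 10 weeks old at the start. The sedentary group (10 rats) had standard cages, and the WR group (8 rats) had free access to a running wheel for 4 weeks. A resistance running group (RWR, 8 rats), whose wheel load was raised stepwise to 30% of body weight in the course of the 4 weeks, was hybridized against the sedentary group on chips 3 and 4. Equal amounts of RNA from each replicate were pooled within each group, so the comparison rests on 1 pool per group, the number of rats in each pool is not given in the sources used here, and no test between running and sedentary rats was possible.

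The hippocampus holds the dentate gyrus, where new neurons form in adult life, and the CA fields, whose excitatory synapses use AMPA and NMDA glutamate receptors. Voluntary running is widely used in rodents to study adult neurogenesis, synaptic plasticity and the neurotrophin BDNF. Type I and type II interferons act through transcription factors of the STAT and IRF families, which bind short promoter elements and switch on antiviral enzymes, chemokines such as Cxcl10 and the antigen-processing machinery. In the healthy brain this programme runs at a low level in neurons and glia.

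The wheel-running pool differed little from the sedentary pool. Over the kept probes the mean log2 ratio of the chips, WR over sedentary, had a median of 0.0031 and an SD of 0.10, and 97.4% of the probes lay within 1.2-fold of equality. A probe was called where its ratio was above 1.5 or below 0.75 on each chip and its deposited p-value, which describes the error of a single chip and not the spread between rats, was under 0.01 on each chip. By this rule 1 probe (0.00392% of the kept probes) was higher in the WR pool and 11 (0.0432%) were lower. At 1.2-fold or more on both chips, without a p-value, 41 probes (0.161%) were higher and 69 (0.271%) lower. A single chip would have given 212 higher and 192 lower (chip 1) or 337 and 275 (chip 2), so the counts rest on the use of both chips.

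Ratios of single chips varied more with the dyes than with the pools. After the ratios were turned to WR over sedentary, chips 1 and 2 correlated at r = -0.68 across the kept probes, and the part of the ratios that changed sign with the dyes had an SD of 0.24, against 0.10 for their mean. The same dye was the brighter on both chips for 71.8% of the kept probes, and the same pool for 28.2%. With the same cutoffs applied to the dyes, 55 probes were brighter in Cy5 on both chips and 99 in Cy3. The labels and the methods state the dye of each pool, and the directions below rest on them; a mean over both chips cancels a dye effect of equal size on each. At low signal the spread was wider. Over the 5097 dimmest kept probes the SD of the mean was 0.15, against 0.061 over the 5097 brightest.

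**Figure D1:**
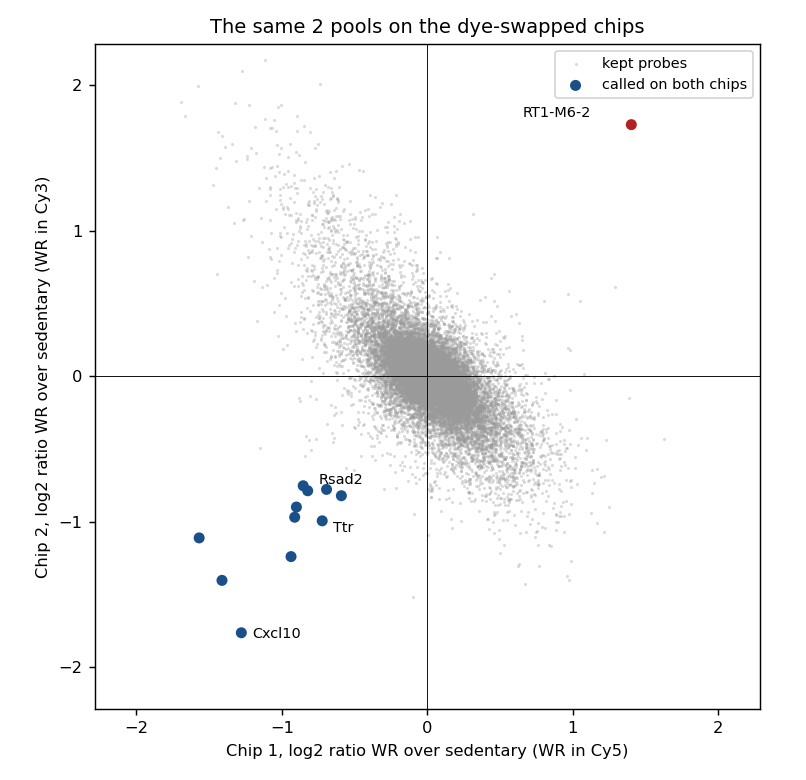
Each grey point is a kept probe, with its log2 ratio of WR over sedentary on chip 1 (x axis) and on chip 2 (y axis); the red point was called higher and the blue points were called lower on both chips. The grey cloud runs from upper left to lower right (r = -0.68), while the 12 called probes lie apart from it, 11 of them at the lower left.

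Among the 11 probes called lower, Cxcl10 had the lowest mean log2 ratio in the deposited values. Cxcl10 encodes an interferon-induced chemokine that attracts T cells through the receptor Cxcr3. Its processed signal was 142.0 in the sedentary pool and 58.5 in the WR pool on chip 1, and 194.4 and 57.3 on chip 2. Both WR signals lay below both sedentary signals, and the WR to sedentary ratio was 0.35 (mean log2 ratio -1.52 ± 0.34, SD of 2 chips). With other background corrections its log2 ratio was -0.68 (normexp) and -0.70 (none), and A_44_P381994 (-0.85 and -0.87) and Rpl13 (-0.78 and -0.78) lay lower.

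Rsad2, which encodes the antiviral enzyme viperin and is also induced by interferon, fell as well. Its signal was 203.7 in the sedentary pool against 115.2 in the WR pool on chip 1, and 193.8 against 112.4 on chip 2. The chips gave nearly the same value, a log2 ratio of -0.80 ± 0.026 (SD of 2 chips). Both genes were also below 0 in the RWR pool, which was set against the same sedentary group: Cxcl10 at -1.03 and -1.84 on chips 3 and 4, and Rsad2 at -0.54 and -0.61.

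Ttr fell in the WR pool. It encodes transthyretin, a carrier of thyroid hormone and retinol that the choroid plexus secretes in large amounts. Its signal was 519.9 (sedentary) and 315.0 (WR) on chip 1, and 530.9 and 266.7 on chip 2, a mean log2 ratio of -0.86 ± 0.19 (SD of 2 chips). The sedentary signals were alike on both chips and the WR signals lay below them. On the RWR chips the log2 ratio of Ttr was 0.20 and 0.04.

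Of the 15 choroid plexus markers listed, 11 had a named probe and 4 were kept. All 4 had a mean below 0, but apart from Ttr none was called: Folr1, a folate receptor, had a mean log2 ratio of -0.21, Igfbp2, an insulin-like growth factor binding protein, -0.07 with the chips on opposite sides of 0, and Enpp2, which oligodendrocytes also make, -0.06. The summed signal of the 4 was 2133.6 in the sedentary and 1941.0 in the WR pool on chip 1, and 2177.5 and 1753.2 on chip 2. Most of this sum was Enpp2, with 1524.8 (sedentary) and 1515.3 (WR) on chip 1 and 1534.4 and 1413.4 on chip 2. On chip 1 the sum fell by no more than Ttr alone, so it does not show a joint fall of the 4. The channel Kcnj13, the chloride channel Clic6 and Klotho (Kl), further markers of this epithelium, did not pass this filter, and Clic6 and Kl were not marked as above background in either pool on either chip. The part of choroid plexus tissue in the Ttr value was not tested. In pooled tissue, fewer cells of a type and less RNA per cell cannot be told apart.

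Rpl13 and Grifin were the other named genes called lower. The called probe for Rpl13, a protein of the large ribosomal subunit, gave 13876.5 and 14595.0 in the sedentary pool and 7678.5 and 8668.0 in the WR pool, a mean log2 ratio of -0.80 ± 0.072 (SD of 2 chips). The other kept Rpl13 probe, A_44_P138057, did not share this difference: its mean was -0.03. Rpl13 belongs to a family with many processed pseudogenes, and the 52 kept genes for cytosolic ribosomal proteins had a median of -0.03, with Rpl13 their lowest value and no other called. Grifin, a galectin-related protein best known from the lens, gave 105.0 and 106.3 in the sedentary pool and 55.8 and 54.4 in the WR pool, a log2 ratio of -0.94 ± 0.04. In the RWR pool, against the same sedentary group, the called Rpl13 probe had -0.78 and -0.77 and Grifin -1.01 and -1.02.

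The other 6 probes called lower have no gene name here. The probe A_44_P381994 gave 280.4 and 325.5 in the sedentary pool against 105.4 and 123.2 in the WR pool, so that the log2 ratios were -1.41 and -1.40. In the RWR pool the same probe was above the sedentary pool, at 1.12 and 1.00. The 5 others, A_44_P178671, A_44_P380167, A_44_P796680, A_44_P978555 and A_44_P288015, had mean log2 ratios from -1.34 to -0.71.

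The only probe called higher was for RT1-M6-2, a class I gene of the rat major histocompatibility complex. Its signal was 48.6 and 33.6 in the sedentary pool and 128.4 and 111.5 in the WR pool, a ratio of 2.96 (log2 ratio 1.57 ± 0.23, SD of 2 chips). On the RWR chips it had 0.44 and 0.80. A brighter probe for the same gene, A_44_P309052, gave 1310.0 and 1172.5 in the sedentary pool against 1367.9 and 1327.0 in the WR pool, a log2 ratio of 0.12. Genes of this family are near copies of each other, so the 2 probes cannot be assigned to a single transcript with certainty.

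The background correction decided part of these calls. With normexp 5 of the 12 probes were still called, those for Cxcl10, Ttr and Rpl13 and the unnamed A_44_P381994 and A_44_P978555, and without background correction A_44_P796680 as well. Both settings kept the deposited p-values. Rsad2 (mean log2 ratio -0.42 with normexp), Grifin (-0.32) and RT1-M6-2 (0.62) kept their direction under normexp and were no longer called.

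**Figure D2:**
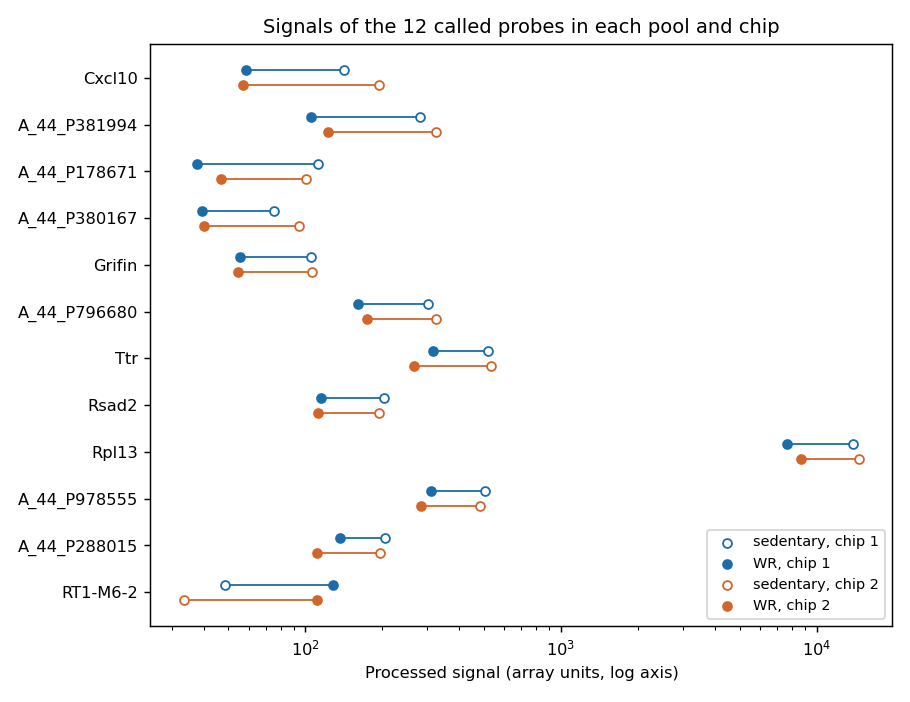
Processed signal (array units, log axis) of each called probe in the sedentary pool (open circles) and the WR pool (filled circles) on chip 1 (blue) and chip 2 (orange). In the upper 11 rows both WR circles lie to the left of both sedentary circles, and for RT1-M6-2 both lie to the right, with WR signals of 128.4 and 111.5.

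Interferon-induced genes were the list with the lowest median on the mean of the chips. Of 31 genes in the list, 22 had a named probe and 18 were kept. Their median log2 ratio was -0.30, against 0.00036 over all 5992 named genes. It was -0.32 on chip 1 and -0.19 on chip 2, where the choroid plexus list (-0.57, 4 genes) and the pituitary list (-0.20, 4 genes) lay lower. The mean of the chips was below 0 for 17 of the 18, whereas 50.4% of all genes had a mean above 0. On single chips, 14 of 18 were below 0 on both chips, where 15.2% of all genes were; 6 were 1.2-fold or more lower on both chips (0.35% of all genes); and 2, Cxcl10 and Rsad2, were called lower (0.0834% of all genes). The list was drawn up with these 2 calls known, and is not independent evidence of its direction. Without both genes, a version chosen once the values were known, the median of the other 16 was -0.28, with 15 below 0 on the mean, 12 below 0 on both chips and 4 at 1.2-fold or more on both.

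These 4 were Oas1a, Irf7, Stat2 and Gbp2, none of which passed the cutoffs for a call. Oas1a encodes an oligoadenylate synthetase that senses double-stranded RNA, and gave 670.2 and 575.2 in the sedentary pool against 473.4 and 452.1 in the WR pool (log2 ratios -0.50 and -0.35). Irf7, a transcription factor that amplifies the type I interferon response, gave 511.2 and 476.7 against 404.5 and 368.4 (-0.34 and -0.37). For both genes both WR signals lay below both sedentary signals. The chips repeat 1 pool per group, and the share of all genes with such a pattern was not counted.

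Stat2, a STAT subunit of the complex that type I interferon activates, gave 93.7 and 62.7 in the sedentary pool against 72.5 and 49.5 in the WR pool (-0.37 and -0.34). Gbp2, an interferon-induced GTPase, gave 361.6 and 343.6 against 299.4 and 269.8 (-0.27 and -0.35). For Stat2 the signals of the pools overlapped between the chips, although the WR signal was the lower on each chip. Oas1b, a second oligoadenylate synthetase that was not in the list, had log2 ratios of -0.81 and -0.44.

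The other members of the list gave smaller or less even values. Ifit2, an antiviral protein with tetratricopeptide repeats, had log2 ratios of -0.24 and -0.22. Usp18, which damps interferon signalling, had -0.43 and -0.17, and the immunoproteasome subunit Psmb9 -0.46 and -0.16. For Bst2 (-0.86 and 0.33), Irf1 (0.34 and -0.75) and B2m (-0.30 and 0.11) the chips gave opposite signs, and the sign followed the dye. Irf9 alone had a mean above 0 (0.024). Another background correction kept the sign of the median and moved its size by over 1.5 times: it was -0.18 with normexp and -0.17 without background correction.

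On the chips of the RWR pool the same 18 genes had a median of -0.10. The RWR and WR pools were compared with the same sedentary group, so their values share its signal. Irf7 was at -0.05 and -0.11 there, Stat2 at -0.02 and -0.14, Oas1a at -0.23 and -0.11 and Gbp2 at -0.14 and -0.25. The difference between the running groups was not tested.

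**Figure D3:**
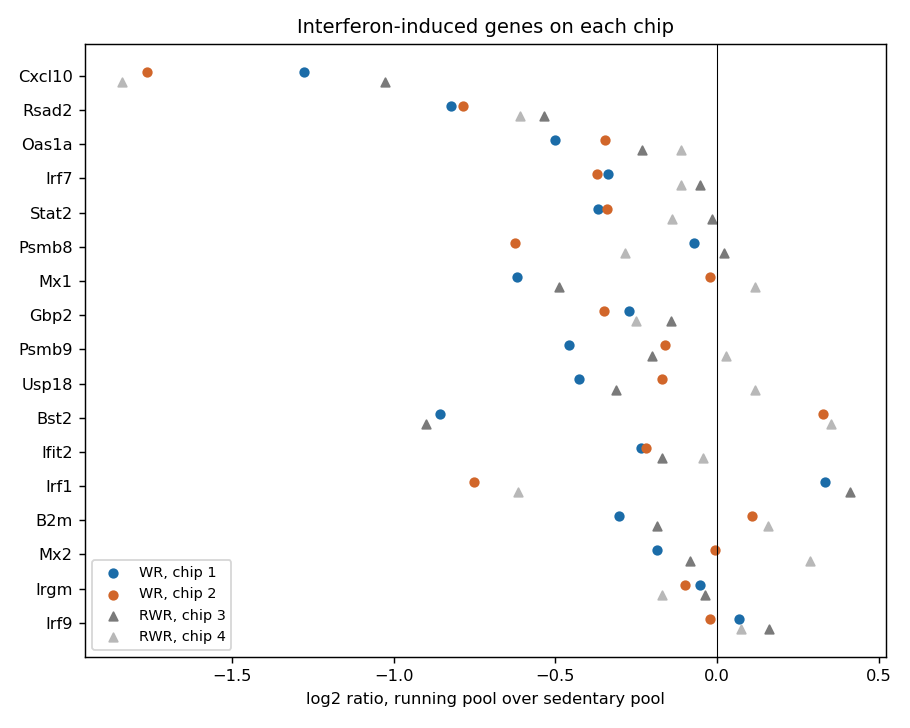
Log2 ratio of the running pool over the sedentary pool (x axis) for 17 of the kept interferon-induced genes, ordered by their WR mean, on the WR chips (circles) and the RWR chips (triangles). Cxcl10 lies furthest to the left on all 4 chips (-1.28 and -1.76 on the WR chips), and genes such as Bst2 and Irf1 lie on either side of 0 according to the dye.

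Factors of the STAT and IRF families bind the interferon-stimulated response element, whose core repeats GAAA after 2 bases. The motif GAAANNGAAA was searched on both strands (TTTCNNTTTC on the other) in the RefSeq promoters of the GRCr8 assembly, from 250 bases before to 50 bases after the start of each gene. It was found in 3.92% of the 33469 promoters. Of the 18 kept interferon-induced genes, 14 were in the promoter table and 9 of these held the motif; Stat2, Irf1, Mx1, Irf9 and Psmb9 did not. Stretches of 80 bases are shown for the 5 genes that were 1.2-fold or more lower on both chips and held it, read 5′ to 3′ in the direction of the gene, with the motif in capitals.
Rsad2, chr6:48788223-48788302, minus strand: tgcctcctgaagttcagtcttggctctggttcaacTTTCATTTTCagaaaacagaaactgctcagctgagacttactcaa
Cxcl10, chr14:15988816-15988895, plus strand: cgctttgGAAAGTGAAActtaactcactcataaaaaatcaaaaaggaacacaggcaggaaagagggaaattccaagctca
Oas1a, chr12:41330390-41330469, plus strand: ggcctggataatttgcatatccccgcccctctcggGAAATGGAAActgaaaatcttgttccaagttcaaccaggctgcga
Irf7, chr1:205800048-205800127, minus strand: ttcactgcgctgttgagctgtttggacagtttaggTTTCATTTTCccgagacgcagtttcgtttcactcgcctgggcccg
Gbp2, chr2:234005661-234005740, plus strand: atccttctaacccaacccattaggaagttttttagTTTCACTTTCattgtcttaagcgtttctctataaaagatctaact
The motif began 147 bases before the start in Rsad2, 243 in Cxcl10, 41 in Oas1a, 69 in Irf7 and 31 in Gbp2. In Oas1a a second match overlaps the first and began 35 bases before the start. A match describes the letters of the promoter and says nothing of binding in these rats.

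The kept chemokines and cytokines other than Cxcl10 did not move together. Of 32 genes for these ligands and their receptors, 31 had a named probe and only 14 were kept, among them Cxcl12, a ligand of Cxcr4, at a mean log2 ratio of -0.11, and Ccl3, an inflammatory chemokine, at 0.25 with the chips on opposite sides of 0. The list had a median of -0.01, no gene above 0 on both chips and 3 below 0 on both. Il1b, Il6, Tnf, Ccl2 and Cxcl1, the classical mediators of inflammation, did not pass the background filter. Ccl17, a ligand of Ccr4 and not in the list, had log2 ratios of 0.53 and 0.27 at signals from 32.1 to 50.9.

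The 13 kept genes of antigen presentation had a median of -0.10, with 10 means below 0 and none called by their brightest probe. B2m, Psmb8 and Psmb9 stand in this list and in the interferon list. RT1-S3, a class Ib molecule, was below 0 on both chips (-0.20 and -0.20), as was RT1-A2, a class Ia gene (-0.32 and -0.12). The 17 genes of microglia and complement, by contrast, had a median of 0.029, with 5 above 0 and 3 below 0 on both chips; C3, the central complement protein, had log2 ratios of 0.08 and 0.33.

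Glutamate receptor genes lay above 0 more often than below, with none called. Of 22 glutamate receptor genes, 18 had a named probe and 17 were kept; their median was 0.061, 14 had a mean above 0, 10 were above 0 on both chips (14.7% of all genes) and 1 was below 0 on both. Gria1, an AMPA receptor subunit, stood highest. Its signal was 1444.4 and 1218.9 in the sedentary pool against 1693.7 and 1667.5 in the WR pool, a log2 ratio of 0.34 ± 0.16 (SD of 2 chips). On the RWR chips, against the same sedentary group, Gria1 had 0.09 and 0.40, and the 17 genes had a median of 0.04.

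Gria1 was measured by 9 spots on each chip, which ranged from 0.19 to 0.30 on chip 1 and from 0.41 to 0.50 on chip 2. The spots of a chip were thus closer to each other than the chips were. The AMPA subunits Gria3 (0.13 and 0.12) and Gria4 (0.28 and 0.07) and the NMDA subunit Grin2a (0.15 and 0.10) were above 0 on both chips, while Grin1, the obligatory NMDA subunit, was not (0.10 and -0.18). Grm8, a presynaptic metabotropic receptor, was lowest at -0.29.

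Nptx2, a secreted pentraxin that clusters AMPA receptors and is induced by neuronal activity, gave 192.2 and 191.8 in the sedentary pool against 254.4 and 231.3 in the WR pool. Both WR signals were higher, with log2 ratios of 0.40 and 0.27 and a mean ratio of 1.26. With normexp or no background correction the mean log2 ratio of Nptx2 was 0.18. In the RWR pool, against the same sedentary group, Nptx2 had 0.23 and 0.24. The 19 kept immediate early genes, which neurons switch on within minutes of activity, had a median of -0.03, with 3 above and 4 below 0 on both chips. The 20 genes of synaptic vesicles had a median of 0.022. The 22 kept GABA receptor and interneuron genes had a median of 0.0075, with 13 means above 0 and 9 below. On both chips 1 was above 0 and 5 were below, against 14.7% and 15.2% of all genes.

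The neurotrophin list had the highest median on the mean of the chips, 0.13, over 7 kept of 10 genes. Not every member is a neurotrophin or a receptor of one, for example Vgf (log2 ratios 0.17 and 0.01). Over all kept probes of each gene the list median was 0.09. Its median was 0.17 on chip 1 and 0.057 on chip 2, where the lists of hippocampal fields (0.076), glutamate receptors (0.075) and ribosomal proteins (0.071) lay higher. The mean was above 0 for 6 of the 7 and both chips were above 0 for 5 (14.7% of all genes), with none called and none at 1.2-fold on both chips. Bdnf itself gave 583.9 and 541.2 in the sedentary pool against 690.9 and 563.0 in the WR pool, log2 ratios of 0.24 and 0.06. The WR signal was higher on each chip, but the WR signal of chip 2 lay below the sedentary signal of chip 1. A second, dimmer Bdnf probe gave 0.28 and -0.02.

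Ntrk3, the receptor of neurotrophin-3, had log2 ratios of 0.23 and 0.02. Ntrk2, the receptor of Bdnf, gave -0.0036 and 0.29 with its brightest probe, measured by 10 spots a chip, and -0.10 and -0.17 with another.

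**Figure D4:**
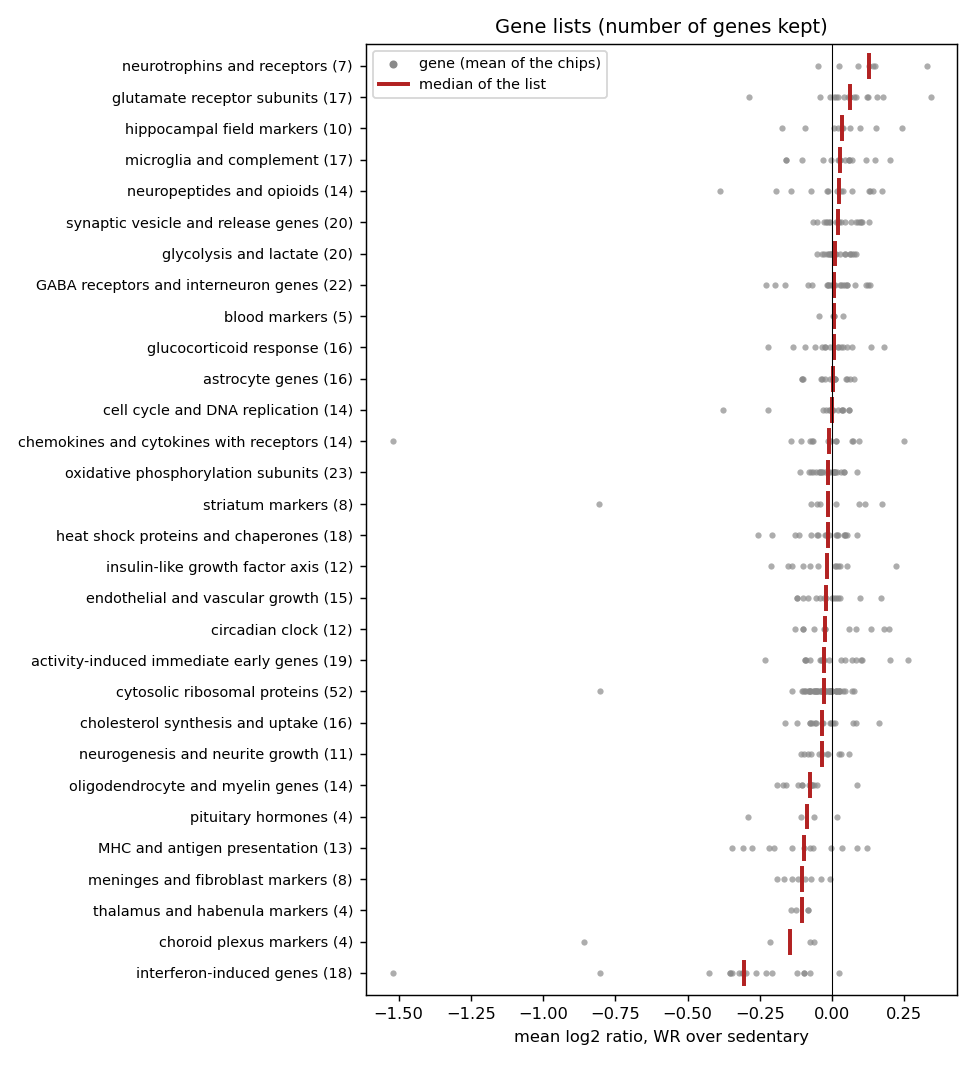
Mean log2 ratio of the chips, WR over sedentary (x axis), for each kept gene (grey points) of the 30 lists, with the median of each list as a red bar and the number of kept genes in parentheses. The interferon-induced list has the lowest median (-0.30) and the neurotrophin list the highest (0.13); most medians lie close to 0.

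Beyond the called probes, the named genes ranked by the smaller of their chip ratios held a mixed group on the higher side. Caprin1, an RNA-binding protein of neuronal granules, had log2 ratios of 0.40 and 0.37 with a single probe, whereas its other kept probes had means of -0.11 and -0.11. Fst, the activin inhibitor follistatin, had 0.39 and 0.23, and its brighter probe had a mean of 0.10. Ccn2, a matricellular growth factor, had 0.25 and 0.23, and its 10 spots on each chip all lay above 0, from 0.15 to 0.31.

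Further genes on the higher side were RT1-T18, Parp16, Spag1, Ube3d, Lcp2, Chst7 and Mapk12. Their mean log2 ratios ran from 0.22 for Mapk12, a p38 kinase, to 0.50 for RT1-T18, a class I gene of the major histocompatibility complex. RT1-T18, Parp16, Spag1, Ube3d, Lcp2 and Mapk12 had signals under 60 in every pool and chip, in the range where the spread between chips was widest. Parp16, an ADP-ribosyltransferase of the endoplasmic reticulum, changed sign with normexp (-0.03).

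On the lower side, Dusp11, an RNA phosphatase, gave 736.6 and 630.1 in the sedentary pool against 468.7 and 461.4 in the WR pool (log2 ratios -0.65 and -0.45). Psma2, a subunit of the proteasome core, gave 1132.4 and 1203.7 against 717.2 and 918.5 (-0.66 and -0.39). For both genes the WR signals lay below both sedentary signals, but the cutoffs for a call were not met. Nde1, a dynein cofactor needed for neuronal progenitor division, had -0.35 and -0.36, and Myh3, an embryonic myosin heavy chain, -0.36 and -0.35.

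Alg5, a glucosyltransferase of N-glycosylation, had -0.37 and -0.48 with its dimmest probe and means of -0.03 and -0.0084 with its other kept probes. Prl3d4, a member of the prolactin family known from the placenta, had -0.64 and -0.42 at signals from 43.1 to 67.3.

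**Figure D5:**
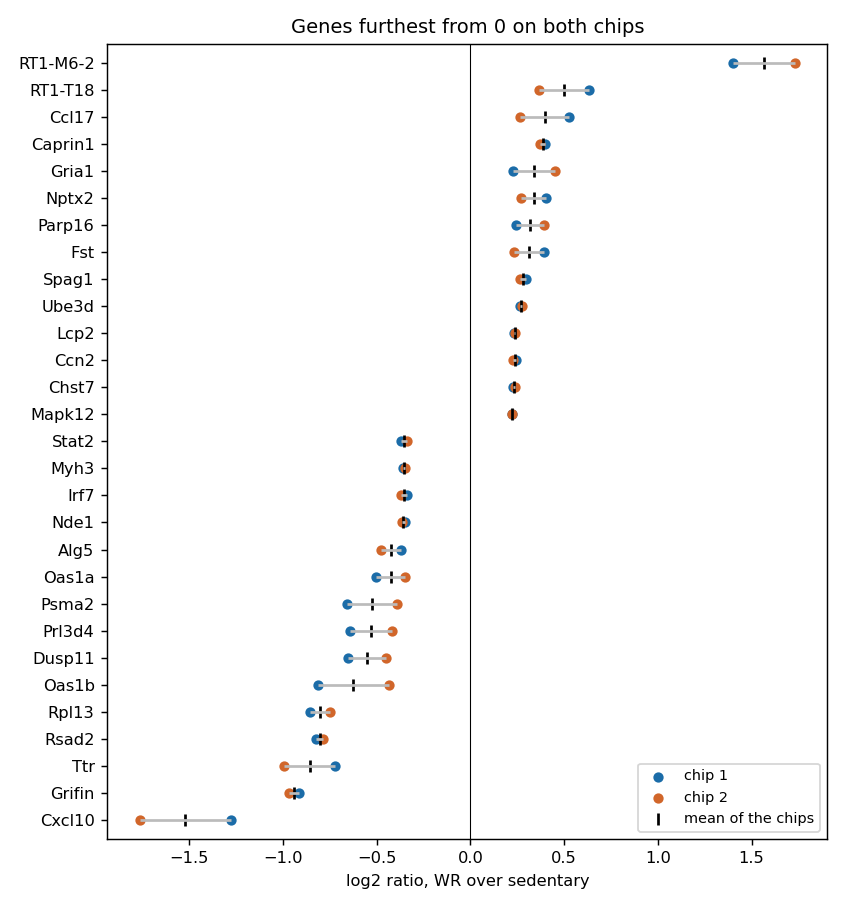
Log2 ratio of WR over sedentary on chip 1 (blue) and chip 2 (orange) for 14 named genes far above 0 and the 15 furthest below 0 on both chips; black ticks mark the mean. The lower side reaches -1.76 for Cxcl10, while on the higher side the furthest chip ratio after those of RT1-M6-2 is 0.63, for RT1-T18.

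Genes of adult neurogenesis did not stand apart. The 11 kept genes of neurogenesis and neurite growth had a median of -0.04, with 1 above and 4 below 0 on both chips, and the 14 kept genes of the cell cycle and DNA replication a median of 0.001.

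Myelin genes lay slightly below 0. Of 14 kept oligodendrocyte genes, 13 had a mean below 0, whereas 50.4% of all genes had a mean above 0. On both chips 8 were below 0, where 15.2% of all genes were. The median was -0.08 and none was called. In the RWR pool, against the same sedentary group, the median of the 14 genes was -0.07. Opalin, a membrane protein of central myelin, gave 4709.8 and 4342.4 in the sedentary pool against 4411.3 and 4019.3 in the WR pool (-0.09 and -0.11). Cldn11, the tight junction protein of myelin, was lowest at -0.19, and Cspg4, a marker of oligodendrocyte precursors, was the only mean above 0 (0.087, the chips on opposite sides of 0). The summed signal of the 14 genes was 87495.9 and 77727.8 in the sedentary pool against 82255.8 and 74454.7 in the WR pool.

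Markers of meninges and of thalamus and habenula, which adjoin the hippocampus, had means below 0. None was called and none was 1.2-fold or more lower on both chips. Among the choroid plexus markers given above, Ttr was called lower. All 8 kept markers of meninges and fibroblasts had a mean below 0, with a median of -0.10. On both chips 5 were below 0, where 15.2% of all genes were. Dcn, a proteoglycan of connective tissue, had -0.11 and -0.13. The summed signal of the 8 was 5664.3 and 5248.6 in the sedentary pool against 5244.3 and 4951.3 in the WR pool. All 4 kept markers of thalamus and habenula were below 0 on both chips, with a median of -0.11 and summed signals of 3052.5 and 2785.1 against 2927.6 and 2546.9. The part of dissection in the results was not tested.

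Markers of the hippocampus were present. The 10 kept markers of hippocampal fields had a median of 0.035, and Calb1, found in dentate granule cells, Wfs1, found in CA1, and Rgs14, found in CA2, were kept. The striatal receptors Drd1 and Drd2 did not pass the background filter, and of the 8 kept striatum markers 4 had a mean above 0 and 4 below. The 16 kept astrocyte genes had a median of 0.0043 and the 5 kept blood markers 0.0068.

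Energy, stress and clock genes also had medians near 0. These were 0.0091 over 20 genes of glycolysis, -0.01 over 23 subunits of oxidative phosphorylation, 0.005 over 16 genes of the glucocorticoid response, -0.02 over 12 clock genes and -0.02 over 18 heat shock proteins and chaperones. No gene of these lists was called, and none was 1.2-fold or more from equality on both chips.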

How the data were processed

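Hippocampal RNA pools of WR and sedentary rats were measured on 2 dye-swapped chips of a 2-colour rat whole-genome oligo array; the labelled dye of each pool gave the groups. The authors processed the scans with Agilent Feature Extraction 11.0.1.1. It subtracted the background and normalized the dyes. Each spot has a deposited log10 ratio (Cy5 over Cy3), a deposited intensity per dye, called the processed signal, and a deposited p-value, which comes from an error model of 1 chip. The authors' series matrix repeats the log10 ratio as computed from these signals (within 5e-06), with Cy5 over Cy3 on every chip.

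Control spots and outlier spots were left out (123 on chip 1 and 140 on chip 2), ratios were turned to WR over sedentary, put on the log2 scale and averaged per probe, with the median of the p-values. No spot was saturated (0 on each chip). Gene names came from a match of unversioned accessions with RefSeq genes of GRCr8, which named 10768 probes for 8899 genes. The brightest kept probe stood for a gene in lists. The text names every called probe, the 15 named genes highest and the 15 lowest by the smaller of their chip ratios with the same sign on both chips, and up to 4 genes of each of 30 lists (highest, lowest and the first in list order); other kept probes are given where they disagree in sign or by over 0.5 (log2). Some genes that these rules name are not reported here; they stay in the counts and medians. Further genes of the lists, chosen after their values were seen, illustrate a group. Members, lists and rules were chosen with earlier results of these data known.

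The chips repeat the same pools, so n is 1 per group, the SD of 2 chips is technical, and the number of chips limits the precision. Spots shared by a probe are not replicates of a rat. Alternatives were other p-value filters and cutoffs, normexp (offset 50) or no background correction with loess in limma 3.58.1 under R 4.3.3, median centring, other filters on dim probes, the series matrix, genes in place of probes, and each chip left out. The selection was run on simulated data with planted changes of 1 log2 unit either way, and its behaviour for smaller changes was not tested. Python 3.11.15, numpy 2.4.6 and pandas 2.3.3 were used.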

Additional observations from a re-analysis of the deposited data

Results flagged for a closer look

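For 12 of the 128 named probes that were kept on all 4 chips, both WR chips lay on one side of the sedentary pool and both RWR chips on the other. Part of the named probes had been chosen for the same sign on both WR chips, which 28.2% of all kept probes had. The share over all probes kept on the 4 chips was not counted, so the count of 12 is not a result about the named probes. The difference between the running groups was not tested; each group is 1 pool, and the sedentary group is common to both. The mean log2 ratio of WR minus that of RWR was -2.46 for the unnamed probe A_44_P381994 and -0.98 for Ttr, the choroid plexus carrier of thyroid hormone. It was -0.68 for Prl3d4, of the prolactin family. For Gal, the neuropeptide galanin, it was -0.54: the log2 ratios were -0.45 and -0.33 on the WR chips and 0.11 and 0.19 on the RWR chips, each from 10 spots. It was -0.41 for Nde1, -0.37 for Prkcd, a protein kinase C that is abundant in thalamus, and -0.17 for the connective tissue gene Dcn. On the other side it was 0.39 for the kinase Akt2, which acts below the insulin receptor, and 0.34 for Ube3d. The smallest were 0.098 for the ribosomal protein Rpl4, 0.092 for the kinase Sgk1 and 0.039 for Csf1r, a receptor of microglia, whose single-chip ratios lie close to 0.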

How the results depend on the processing

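The count of called probes depended on the rule, and the sizes of the ratios on the background correction. Against 1 probe higher and 11 lower, dropping the p-value filter gave 2 and 21, for the deposited ratios and for the series matrix alike. A p-value under 0.01 on at least 1 chip gave 2 and 18, and cutoffs on the mean of the chips with that filter gave 9 and 35. Normexp gave 0 and 5, and no background correction 0 and 6, all of them among the 12 called probes. Both settings kept the deposited p-values, so only probes that had passed that filter could be called, and the overlap is not independent. Genes in place of probes gave 0 and 5. With a single chip, 212 to 337 probes were higher and 192 to 275 lower. Equal cutoffs, median centring and other filters on dim probes left the counts at 1 higher and 11 or 12 lower. For the named genes, 741 of the recomputed means moved by no more than the SD of the chips and 75 by more. The 741 include the values of a single chip, which lie within that SD by construction. They also include the series matrix, which repeats the deposited ratios, and median centring, which moves all ratios of a chip by the same small amount. The 741 are therefore no measure of robustness. For the list medians the counts were 183 and 28. No called value changed sign, and of 36 probes named for calls or rank only Parp16 did, with normexp. No paired analysis was possible because the chips are a technical dye swap of 1 pool per group. The values say nothing of the spread between rats. Small differences of dim probes were not detectable beside the dye effect, and 15525 probes under the background filter were not compared.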

Other observations

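Neuropeptides gave uneven values. The 14 kept genes had a median of 0.024, with 4 above and 3 below 0 on both chips. Penk, the precursor of enkephalin, had log2 ratios of 0.16 and 0.19, while Gal was the lowest of the list and the only member 1.2-fold or more from equality on both chips: its signal was 641.3 and 563.8 in the sedentary pool against 471.3 and 447.3 in the WR pool. Cartpt, another neuropeptide precursor, had -0.20 and -0.20. For Npy the chips gave opposite signs, 0.40 and -0.14, although the 10 spots of each chip lay within 0.36 to 0.42 and -0.17 to -0.09.

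Different probes of a gene shared only part of their deviation. Across the 1252 genes with 2 or more kept probes, the mean log2 ratios of the brightest pair correlated at r = 0.30 (across genes, which are not independent replicates), and the median absolute difference between them was 0.044. The part that changed sign with the dyes correlated at r = 0.12 over the same pairs.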
